A study of Mus musculus with 16 samples.

Results

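The 51 genes described here encode the machinery that takes a new protein into the endoplasmic reticulum (ER), folds and glycosylates it, sends misfolded copies for degradation and packs folded cargo for transport to the Golgi. They were taken by symbol from a deposited expression table of 54532 genes, and all 51 were found. By role they are 17 chaperones and folding enzymes, 6 genes of ER-associated degradation, 9 of the translocon and signal peptidase, 4 of the oligosaccharyltransferase, 8 of the COPII coat and 7 cargo and KDEL receptors.

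The series holds 16 RNA-seq libraries from aortas stripped of adventitia, in 2 groups of 8. All mice were male Apoe-/- mice on the C57BL/6j strain, 8 to 12 weeks old, so both groups lacked apolipoprotein E, although the library names carry the letters WT. The saline group received 0.9% sodium chloride and the Ang II group received angiotensin II (Ang II), a vasoconstrictor peptide hormone, at 1000 ng/kg/min, both by subcutaneous Alzet osmotic pump for 7 days. The labels do not tie each library to a mouse, so the p-values speak of differences between libraries, part of which may be technical.

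Proteins bound for secretion or for membranes enter the ER through the Sec61 channel, receive N-linked sugars, and fold with the help of BiP, lectin chaperones and protein disulfide isomerases. When unfolded protein builds up, the unfolded protein response raises the transcription of many of these genes through the factors ATF6 and XBP1. Folded cargo leaves in COPII vesicles, and KDEL receptors return escaped chaperones from the Golgi. In the artery wall, smooth muscle cells and fibroblasts use this route for collagen, elastin and other matrix proteins.

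Promoter windows from RefSeq (GRCm38.p6), 300 bases long with 250 before and 50 after the gene start, were given for 43 of the 51 genes. They were searched on both strands for 4 motifs known from the unfolded protein response: ERSE (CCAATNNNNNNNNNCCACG), ERSE-II (the capitals of the Herpud1 stretch below, joined by any 1 base), UPRE (TGACGTGG) and the ATF4 element CARE (TGATGNAA). No matches of different motifs overlapped. ERSE was present in 9 of the 43 windows (20.9%) and in 0.137% of the windows of 27025 genes. ERSE-II was present in 2 (4.65%, against 0.0444% of all windows) and UPRE in 3 (6.98%, against 0.714%). CARE was present in 2 (4.65%, against 4.51%), Herpud1 and Kdelr1, and neither gene was called with Ang II. The stretches below are shown because they let the motif be read beside the response of each gene, given later. They are read 5′ to 3′ on the gene's strand, with the fixed letters of the motif in capitals. Hspa5, Pdia6 and Derl3 rose with Ang II and carry ERSE, Syvn1 and Creld2 carry ERSE and were not called, Dnajb11 rose and Herpud1 was not called with ERSE-II, and Kdelr3, Sec23a and Sec24d rose and carry UPRE. In Creld2, Dnajb11 and Sec24d the result changed under some alternatives, given later.
Hspa5, chr2:34772010-34772058, + strand, ERSE: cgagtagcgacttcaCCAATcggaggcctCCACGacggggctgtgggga
Pdia6, chr12:17266476-17266524, + strand, ERSE: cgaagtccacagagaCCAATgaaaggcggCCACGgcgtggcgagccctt
Derl3, chr10:75893227-75893275, + strand, ERSE on the opposite strand: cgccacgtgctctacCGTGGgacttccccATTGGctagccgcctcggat
Syvn1, chr19:6046517-6046565, + strand, ERSE: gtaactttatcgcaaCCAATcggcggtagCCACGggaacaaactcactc
Creld2, chr15:88819505-88819553, + strand, ERSE on the opposite strand: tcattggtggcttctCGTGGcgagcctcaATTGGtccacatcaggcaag
Dnajb11, chr16:22857843-22857871, + strand, ERSE-II: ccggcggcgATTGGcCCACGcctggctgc
Herpud1, chr8:94386362-94386402, + strand, ERSE-II: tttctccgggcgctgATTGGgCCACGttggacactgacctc
Kdelr3, chr15:79516363-79516400, + strand, UPRE on the opposite strand: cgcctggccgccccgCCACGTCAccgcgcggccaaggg
Sec23a, chr12:59011993-59012022, - strand, UPRE: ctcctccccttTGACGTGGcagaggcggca
Sec24d, chr3:123267455-123267492, + strand, UPRE: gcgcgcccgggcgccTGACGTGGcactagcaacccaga

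In Hspa5 the ERSE lay 65 to 47 bases before the RefSeq start. The Dnajb11 match lay 8 to 18 bases after the start and the Sec23a match 7 to 14 bases after it. The other ERSE carriers were Calr, Canx, Dnajc3 and Hsp90b1, which holds 2 sites.

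Expression was deposited as FPKM, fragments scaled by transcript length and library total. Library totals ran from 14606867 to 17590091 reads in the saline group and from 15779128 to 19988718 in the Ang II group, so 1 read in a transcript of 1 kilobase was worth 0.05 to 0.0685 FPKM. On the first principal component, which held 46.9% of the variance, Saline 2, Saline 7 and Saline 8 stood apart from the other libraries. Summed smooth muscle markers ran from 8981 to 15345 FPKM in saline and from 6315 to 10716 in Ang II, with 4 of 8 markers lower and 0 higher. Summed macrophage markers ran from 26.5 to 729.9 FPKM in saline and from 74.6 to 740.4 in Ang II, with 2 of 10 higher and 0 lower. Adipocyte markers ran from 99.9 to 474 FPKM in saline and from 50.6 to 183 in Ang II. Of the 8 tested, 2 were lower (Plin4 and Fabp4) and 0 higher. Much of this sum was Plin4, which alone ran from 83.9 to 198 FPKM in saline and from 35.1 to 64.6 in Ang II. Adipoq, Plin1 and Cidec, with saline medians of 4.83, 3.12 and 6.88 FPKM, were not called, nor were Cfd, Retn and Ucp1. Fibroblast markers ran from 55.6 to 187 FPKM in saline and from 45.6 to 155 in Ang II, with 1 of 7 higher and 1 lower. Endothelial markers ran from 424 to 1305 FPKM in saline and from 141 to 1168 in Ang II, with 1 of 7 lower and 0 higher. Plasma cell markers ran from 6.93 to 113 FPKM in saline and from 6.98 to 39.1 in Ang II, with none of the 4 tested markers called. No marker of these lists was at 0 in all libraries, and the part of these cell types in the results was not tested beyond the fits with an adipocyte or a macrophage score given beside the counts. In bulk tissue, fewer cells of a type and less RNA per cell cannot be told apart.

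All 51 genes passed the filter of a mean of 0.5 FPKM, with means from 3.52 FPKM in Derl3 to 456 FPKM in P4hb. With Ang II, 30 of the 51 rose and 0 fell at an adjusted p under 0.05 (limma on log2(FPKM + 1), Benjamini-Hochberg over 15007 genes). Of all genes tested, 9.54% rose and 24.9% fell. The median log2 fold change of the 51 genes was 0.41, against -0.12 for all genes tested, and 45 of the 51 values were above 0. In 6 genes (P4hb, Sec61a1, Rpn1, Sec24a, Kdelr3 and Lman1) the lowest Ang II value exceeded the highest saline value, which held for 2.74% of all genes. In 0 of the 51 genes did the highest Ang II value lie below the lowest saline value, against 5.62% of all genes. Without Saline 7 and Saline 8, 32 genes rose (background 8.43% higher and 26.6% lower), and without Saline 2, Saline 7 and Saline 8, 30 rose and 1, Dnajc10, fell (background 8% and 26.3%). With an adipocyte marker score as a covariate 19 rose (background 5.5% higher and 13.8% lower) and with a macrophage marker score 20 rose (background 5.62% and 15.3%). On recovered reads (limma voom) 30 rose, beside 9.62% of all genes, and in a fit with replicate number as a block 30 rose, beside 9.42%. Scaling by median ratios moved the median of all genes from -0.12 to -0.003 and gave 38 members higher, beside a background of 14.9% higher and 14.1% lower. Quantile normalization gave 42 members higher, beside 15.1% higher and 15.8% lower. A pseudocount of 0.1 gave 30, beside 9.47% higher and 24.9% lower. With no filter 27 rose, beside 4.12% higher and 10.2% lower of 31423 genes, and with array weights 36 rose and 1 fell, beside 11.2% higher and 33.7% lower.

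**Figure D1:**
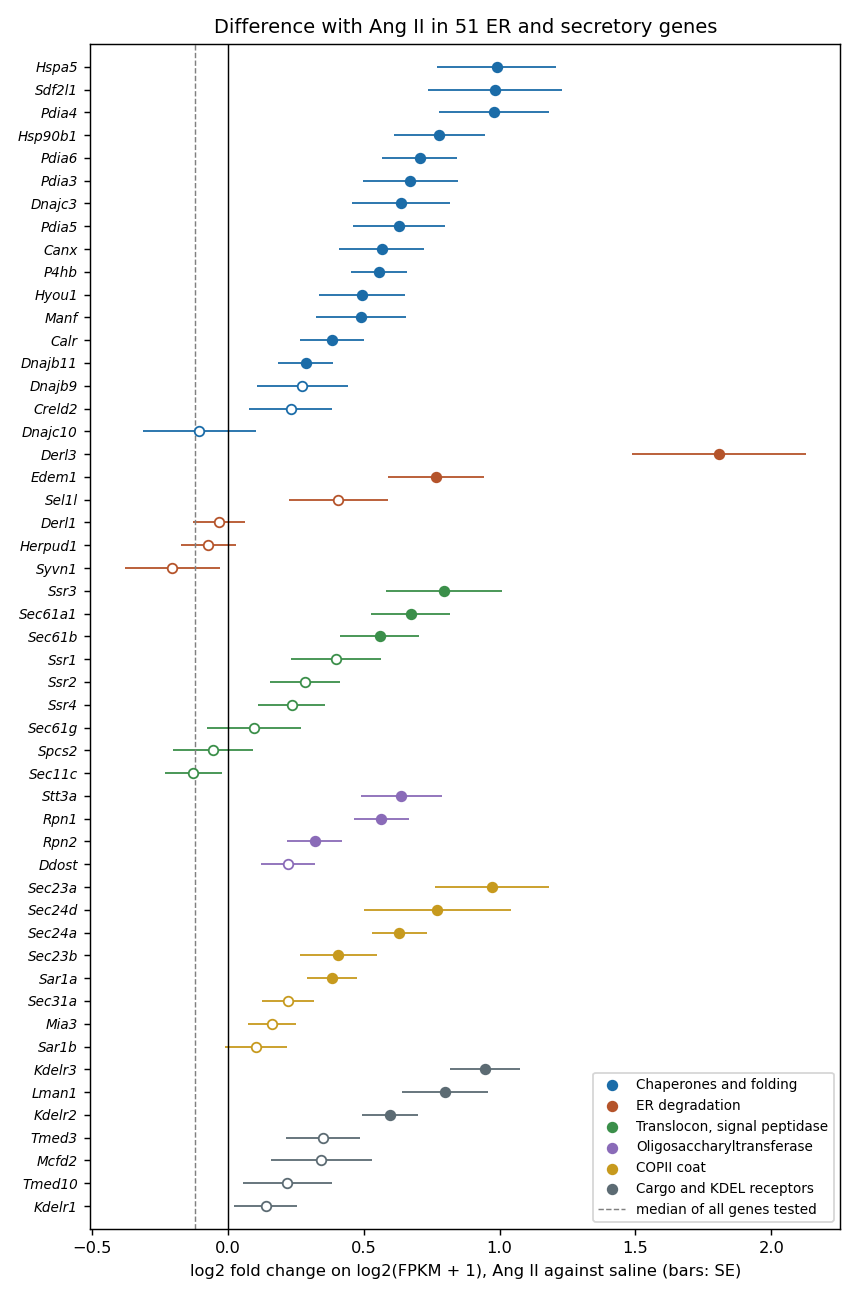
Log2 fold change on log2(FPKM + 1), Ang II against saline, with its standard error, for each of the 51 genes grouped by role (n = 8 libraries per group). Filled circles mark the 30 genes that rose, open circles the 21 not called, and the dashed line the median of all genes tested (-0.12).

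The chaperones and folding enzymes held the most rises, with 14 of 17 higher, 0 lower and a median log2 fold change of 0.57. Of all genes tested, 9.54% were higher and 24.9% lower. Hspa5 (chr2:34771970-34777547) encodes BiP, the Hsp70 chaperone that holds unfolded chains and keeps the stress sensors inactive. It measured 107, 203 and 286 FPKM (lowest, median and highest) in saline and 250.3, 389.5 and 618 FPKM in Ang II. In Hspa5, 6 of 8 Ang II libraries exceeded the saline maximum, and the log2 fold change was 0.99 (SE 0.22, adjusted p = 0.00254, limma). Hsp90b1 encodes Grp94, the ER member of the Hsp90 family. It ran from 83.9 through a median of 144 to 181 FPKM in saline and from 165 through 238 to 319 FPKM in Ang II, with a log2 fold change of 0.78 (SE 0.17, adjusted p = 0.00196, limma). Its ranges met only at the lowest Ang II library, with 7 of 8 above every saline value, and 15.7% of its exon bases overlapped other gene models whose reads cannot be told apart here.

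The protein disulfide isomerases form and reshuffle disulfide bonds. Pdia4 (chr6:47796141-47813430) measured 23.7, 54.8 and 66.3 FPKM in saline and 63.4, 92.3 and 140.1 FPKM in Ang II, a log2 fold change of 0.98 (SE 0.20, adjusted p = 0.00155, limma). Of its Ang II libraries 7 of 8 lay above every saline library. Pdia6 measured 64.1, 105 and 135 FPKM in saline and 131, 166 and 211 FPKM in Ang II, with a log2 fold change of 0.71 (SE 0.14, adjusted p = 0.000965, limma) and again a single Ang II library inside the saline range. P4hb (chr11:120560298-120573253), which is both a disulfide isomerase and the beta subunit of the prolyl 4-hydroxylase that modifies collagen, was the most abundant of the 51 genes. P4hb ran from 295 through 381 to 454 FPKM in saline and from 478 through 537 to 624 FPKM in Ang II. The groups did not overlap, although the log2 fold change of 0.56 (SE 0.10, adjusted p = 0.000685, limma) was smaller than that of Hspa5. Pdia3, the isomerase that works with the lectin chaperones, and Pdia5 rose by 0.67 and 0.63 on the log2 scale.

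The lectin chaperones bind newly glycosylated proteins. Canx rose from 97.1 ± 22.7 FPKM (SD, n = 8) to 142 ± 22.0 FPKM, with a log2 fold change of 0.57. Calr rose less, by 0.38 (338 ± 49.9 to 442 ± 68.8 FPKM), and 4 of 8 Ang II libraries stayed within the saline range. Hyou1, a nucleotide exchange factor of BiP, rose by 0.49 and Dnajc3, a J-domain co-chaperone, by 0.64. Sdf2l1, which acts with another co-chaperone, Dnajb11, had one of the larger differences of the class, 0.98 (SE 0.25, adjusted p = 0.00599, limma), at low levels of 5.97 ± 2.59 FPKM in saline and 12.6 ± 4.85 FPKM in Ang II. Dnajb11 itself had a log2 fold change of 0.29 (adjusted p = 0.0360) and the secreted factor Manf one of 0.49 (adjusted p = 0.0297, both limma). Leaving out any 1 of Saline 1, 2, 3, 4 and 6 and Ang II 1, 3, 6 and 8 ended the call of Dnajb11 (adjusted p 0.0509 to 0.0722). Leaving out Saline 4, 6 or 8 or Ang II 1, 3 or 4 ended that of Manf (0.0510 to 0.0635, limma).

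Of this class 3 genes were not called. Dnajc10, a disulfide reductase with a J domain, measured 58.0, 150.2 and 169.7 FPKM in saline and 81.3, 117 and 138 FPKM in Ang II. The Ang II values lay wholly within the wide saline range, and the log2 fold change was -0.10 (adjusted p = 0.722, limma). Without Saline 2, 7 and 8 its log2 fold change was -0.51 and it was called lower. Creld2, an ER stress-induced protein, had 15.9, 24.3 and 34.2 FPKM in saline and 22.5, 27.6 and 41.1 FPKM in Ang II (0.23, adjusted p = 0.250, limma). Creld2 was called higher under quantile normalization (0.41), with array weights, without Saline 7 and 8, and without Saline 2, 7 and 8. Dnajb9, a J-domain protein induced by the stress sensor IRE1, had a log2 fold change of 0.27 (adjusted p = 0.211, limma). Both ranges overlapped for most libraries, with 2 of 8 Ang II libraries above the saline maximum in each gene. Without Saline 7 and 8 the class had 15 members higher (background 8.43%), and without Saline 2, 7 and 8 it had 13 (background 8%). With an adipocyte marker score as a covariate it had 6 higher (background 5.5%), and with a macrophage marker score 7 (background 5.62%). Hspa5, Hsp90b1, Pdia4, Pdia6 and P4hb were called with either score, and Calr, Canx, Dnajb11, Dnajc3, Hyou1 and Manf with neither. Sdf2l1 was called with the adipocyte but not the macrophage score, and Pdia3 and Pdia5 with the macrophage but not the adipocyte score.

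**Figure D2:**
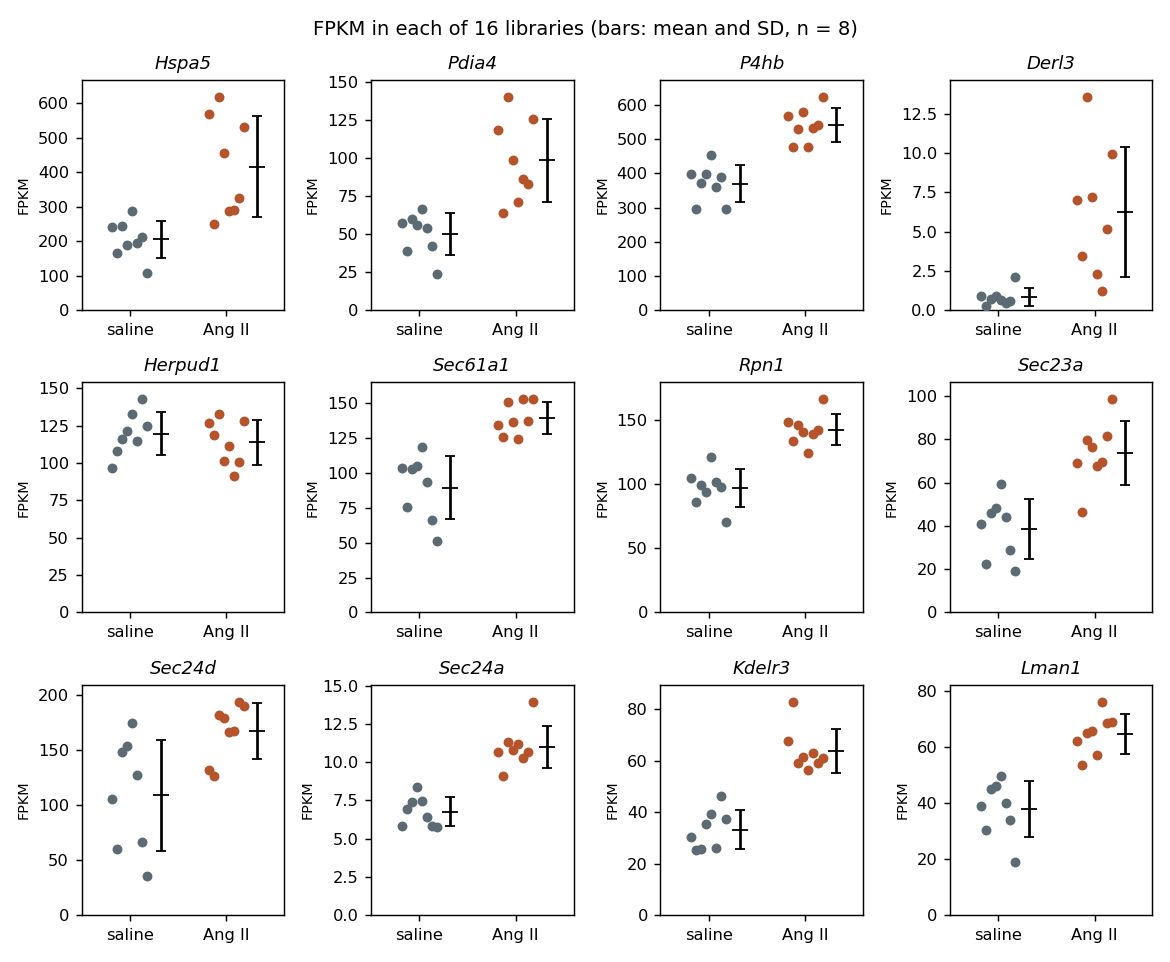
FPKM of 12 of the genes in each library, with points for the 8 saline and the 8 Ang II libraries and bars for mean and SD. The groups do not overlap in P4hb, Sec61a1, Rpn1, Sec24a, Kdelr3 and Lman1, meet in part in Hspa5, Pdia4, Derl3, Sec23a and Sec24d, and cover a similar range in Herpud1.

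Of the 6 degradation genes 2 rose (Derl3 and Edem1), 0 fell and 4 were not called, with a median log2 fold change of 0.19 against -0.12 for all genes tested. The shares of all genes tested were 9.54% higher and 24.9% lower. Derl3, a Derlin that takes part in moving misfolded glycoproteins out of the ER, rose from 0.267, 0.666 and 2.09 FPKM in saline to 1.18, 6.06 and 13.6 FPKM in Ang II. It had the largest log2 fold change of the 51 genes, 1.81 (SE 0.32, adjusted p = 0.000445, limma), and 7 of 8 Ang II libraries exceeded the saline maximum. Its lowest library held 3 reads, and because the pseudocount of 1 understates the change at such levels, the log2 fold change on recovered reads (limma voom) was 2.73. Edem1, a lectin that hands misfolded glycoproteins to degradation, measured 10.2, 21.8 and 27.2 FPKM in saline and 26.0, 32.5 and 40.4 FPKM in Ang II. All but 2 Ang II libraries exceeded every saline library, with a log2 fold change of 0.77 (SE 0.18, adjusted p = 0.00334, limma).

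The ubiquitin ligase core of this branch gave other values. Syvn1 (Hrd1), the ligase, had a log2 fold change of -0.20 (24.3 ± 9.78 FPKM in saline and 19.8 ± 2.22 in Ang II, adjusted p = 0.379), and Sel1l, its adaptor, one of 0.41 (adjusted p = 0.0929, both limma). The highest Syvn1 values were those of Saline 7 and Saline 8 (34.0 and 43.4 FPKM), and its log2 fold change reached 0.13 among the alternatives. Herpud1, which binds the ligase complex and is itself a stress-induced gene, measured 96.8, 119 and 143 FPKM in saline and 91.2, 115 and 133 FPKM in Ang II. Its log2 fold change was -0.07 (adjusted p = 0.604, limma), and none of the Ang II values passed the saline maximum. Derl1, the more abundant relative of Derl3, measured 38.6, 53.4 and 65.4 FPKM in saline and 44.1, 52.3 and 58.0 FPKM in Ang II, with a log2 fold change of -0.03 (adjusted p = 0.821, limma). Under scaling by median ratios the small differences of Herpud1 and Derl1 turned to 0.073 and 0.11, still not called.

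Of the 13 genes of the translocon, signal peptidase and oligosaccharyltransferase, 6 rose and 0 fell, with a median log2 fold change of 0.32, beside 9.54% higher and 24.9% lower of all genes. Without Saline 7 and 8 there were 8 higher (background 8.43%), and with the adipocyte or the macrophage score 4 each (background 5.5% and 5.62%). The central channel subunit Sec61a1 (chr6:88503579-88518905) measured 51.5, 98.2 and 118 FPKM in saline and 124, 137 and 153 FPKM in Ang II. Its groups did not overlap, and the log2 fold change was 0.67 (SE 0.15, adjusted p = 0.00206, limma). Sec61b rose by 0.56 (79.1 ± 20.9 to 115 ± 18.02 FPKM), with 3 of 8 Ang II libraries above the saline maximum, and was not called with the macrophage score (0.46, adjusted p = 0.0619, limma). The small subunit Sec61g had 84.6 ± 21.8 and 89.7 ± 21.2 FPKM and a log2 fold change of 0.10 (adjusted p = 0.690, limma). Thus 2 of the 3 subunits of the channel passed the test, and the difference between the subunits was not tested.

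The TRAP complex sits beside the channel and helps the entry of some proteins. Of its 4 genes only Ssr3 was called, with 34.8, 105 and 140.4 FPKM in saline and 130.4, 158 and 184 FPKM in Ang II (log2 fold change 0.80, SE 0.21, adjusted p = 0.00866, limma), and 6 of 8 Ang II libraries exceeded the saline maximum. Ssr3 was not called with the adipocyte score (0.53, adjusted p = 0.0913) or the macrophage score (0.69, adjusted p = 0.0608, both limma). Ssr1, Ssr2 and Ssr4 had log2 fold changes of 0.40, 0.28 and 0.23 (adjusted p 0.0702, 0.0973 and 0.151, limma). Each passed when 1 library was left out: Ssr1 without Saline 5 (adjusted p = 0.0370), Ssr2 without Saline 7 (0.0100) and Ssr4 without Saline 7 (0.0424, all limma). In Ssr2, 12.8% of the exon bases overlapped another gene model, so part of its reads cannot be assigned.

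The signal peptidase genes had no call. Sec11c, a catalytic subunit, had a log2 fold change of -0.13 and Spcs2, an accessory subunit, one of -0.05 (adjusted p 0.364 and 0.800, limma). The oligosaccharyltransferase attaches the N-linked sugar chain to proteins as they enter. Rpn1 (chr6:88084482-88105304), which holds the substrate near its active site, measured 70.2, 98.2 and 121 FPKM in saline and 124, 141 and 166 FPKM in Ang II. The groups did not overlap (log2 fold change 0.56, SE 0.10, adjusted p = 0.000483, limma). The catalytic subunit Stt3a measured 47.4, 77.1 and 97.9 FPKM in saline and 81.7, 112 and 141 FPKM in Ang II, and 7 of 8 Ang II libraries lay above the saline range (0.64, SE 0.15, adjusted p = 0.00377, limma). Rpn2 rose by 0.32 (192 ± 23.5 to 239.9 ± 30.2 FPKM) and was not called with the adipocyte score (0.30, adjusted p = 0.0856, limma), and Ddost was not called (0.22, adjusted p = 0.0945, limma).

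The COPII coat and the receptors it carries had 8 of 15 higher, 0 lower and a median log2 fold change of 0.38. Of all genes tested, 9.54% rose and 24.9% fell in the same fit. There were 7 higher without Saline 7 and 8 (background 8.43%), with the adipocyte score (5.5%) and with the macrophage score (5.62%). In each of these fits Sec23b and Sec24d lost their calls. Newly called was Tmed3 or, with the macrophage score, Sec31a. The coat itself had 5 of 8 higher. Sec23a (chr12:58958383-59012017), of the inner coat and known for collagen secretion in the skeleton, measured 19.1, 42.5 and 59.5 FPKM in saline and 46.4, 72.9 and 98.5 FPKM in Ang II. In Sec23a 7 of 8 Ang II libraries exceeded the saline maximum, and the log2 fold change was 0.97 (SE 0.21, adjusted p = 0.00209, limma). Sec24a, a cargo-binding subunit present at lower levels, measured 5.75, 6.68 and 8.40 FPKM in saline and 9.08, 10.7 and 13.97 FPKM in Ang II. The groups of Sec24a did not overlap (0.63, SE 0.10, adjusted p = 0.000186, limma). Sar1a, a GTPase that starts coat assembly, measured 223, 269.7 and 331 FPKM in saline and 331, 357 and 374 FPKM in Ang II (0.38, SE 0.09, adjusted p = 0.00459, limma), with a single Ang II library inside the saline range.

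The calls of Sec24d and Sec23b lay near the threshold and were lost in 8 and 6 of the 16 fits that left out 1 library. Sec24d, a subunit needed for collagen export in fish, measured 35.0, 117 and 175 FPKM in saline and 127, 173 and 194 FPKM in Ang II, and 4 of 8 Ang II libraries lay within the saline range. Its log2 fold change of 0.77 (SE 0.27, adjusted p = 0.0353, limma) lost its call without Saline 2 or Saline 7, or without any single one of Ang II 3 to 8 (adjusted p 0.0521 to 0.0715). Sec23b measured 11.6, 19.995 and 24.1 FPKM in saline and 17.2, 25.9 and 30.4 FPKM in Ang II (0.41, SE 0.14, adjusted p = 0.0323, limma). Its call was lost without Saline 2 or without Ang II 1, 3, 5, 7 or 8 (adjusted p 0.0507 to 0.0648). Without Saline 7 and 8 together, the log2 fold change was 0.44 for Sec24d (adjusted p = 0.0893) and 0.30 for Sec23b (adjusted p = 0.0627, both limma). With the adipocyte or the macrophage score neither was called. Not called were Sec31a of the outer coat (0.22, adjusted p = 0.0824), Mia3, also called TANGO1, which loads collagen into the vesicle (0.16, adjusted p = 0.169), and the GTPase Sar1b (0.10, adjusted p = 0.502, all limma). Sar1b measured 36.9, 61.5 and 70.5 FPKM in saline and 56.7, 60.3 and 68.6 FPKM in Ang II.

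Among the receptors, 3 of 7 rose, beside 9.54% of all genes tested. KDEL receptors recognise the tail sequence shared by many soluble ER chaperones. Kdelr3 (chr15:79516411-79527739) measured 25.2, 32.9 and 46.4 FPKM in saline and 56.5, 61.2 and 82.9 FPKM in Ang II, and it had the smallest adjusted p of the 51 genes (log2 fold change 0.95, SE 0.13, adjusted p = 4.32e-05, limma). The Kdelr3 groups did not overlap. Kdelr2 measured 36.3, 43.7 and 61.8 FPKM in saline and 59.6, 64.2 and 77.2 FPKM in Ang II, with 7 of 8 Ang II libraries above the saline range (0.60, SE 0.10, adjusted p = 0.000376, limma). Kdelr1, the most abundant of the 3 receptors, measured 90.2, 109.7 and 173 FPKM in saline and 111, 125 and 145 FPKM in Ang II and was not called (0.14, adjusted p = 0.364, limma).

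Lman1, the lectin receptor that carries coagulation factors and other glycoproteins, measured 18.8, 39.5 and 49.8 FPKM in saline and 53.7, 65.4 and 76.3 FPKM in Ang II without overlap (0.80, SE 0.16, adjusted p = 0.00107, limma). Its partner Mcfd2 measured 41.9, 108 and 132 FPKM in saline and 98.0, 122 and 138 FPKM in Ang II and was not called (0.34, adjusted p = 0.160, limma). The p24 proteins Tmed3 and Tmed10 were not called (0.35 and 0.22, adjusted p 0.0562 and 0.311, limma). Tmed3 passed without Saline 7, Saline 8 or Ang II 5 (adjusted p 0.00919 to 0.0451).

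Ratios between related genes within a library do not depend on the scaling between libraries. For 6 of them, exact two-sided permutation tests were run over all assignments of the libraries to groups, adjusted over the 6. These tests were chosen with earlier results of these data known, and the adjustment does not cover that choice. The Kdelr3 to Kdelr1 ratio rose from 0.233, 0.267 and 0.413 in saline to 0.434, 0.498 and 0.627 in Ang II. All 8 Ang II values lay above every saline value (log2 difference 0.83, exact p = 0.000155, the smallest the test can give, adjusted p = 0.000932). The Derl3 to Derl1 ratio rose by 2.85 on the log2 scale (exact test, adjusted p = 0.00140), with 6 of 8 Ang II values above every saline value. The Sec23a to Sec23b ratio rose from a median of 1.95 to 2.77 (log2 difference 0.57, exact test, adjusted p = 0.00342). The Sar1a to Sar1b ratio rose from a median of 4.88 to 5.87 (0.28, exact test, adjusted p = 0.00629), with 2 of 8 Ang II values above the saline maximum.

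The other 2 ratios were not called. The Sec24d to Sec24a ratio ran from 6.09 through 18.2 to 23.4 in saline and from 12.3 through 15.5 to 18.2 in Ang II (log2 difference 0.07, exact test, adjusted p = 0.787), and its sign turned without Saline 8 (-0.10) or Saline 2 (-0.03). The Sec11c to Sec11a ratio, between the paired catalytic subunits of signal peptidase, differed by -0.17 (exact test, adjusted p = 0.0793). Sec11a measured 51.2, 63.0 and 79.2 FPKM in saline and 57.8, 66.9 and 68.7 FPKM in Ang II. Of the 4 ratios that passed, the groups stood apart without overlap for Kdelr3 to Kdelr1 and overlapped for the other 3.

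**Figure D3:**
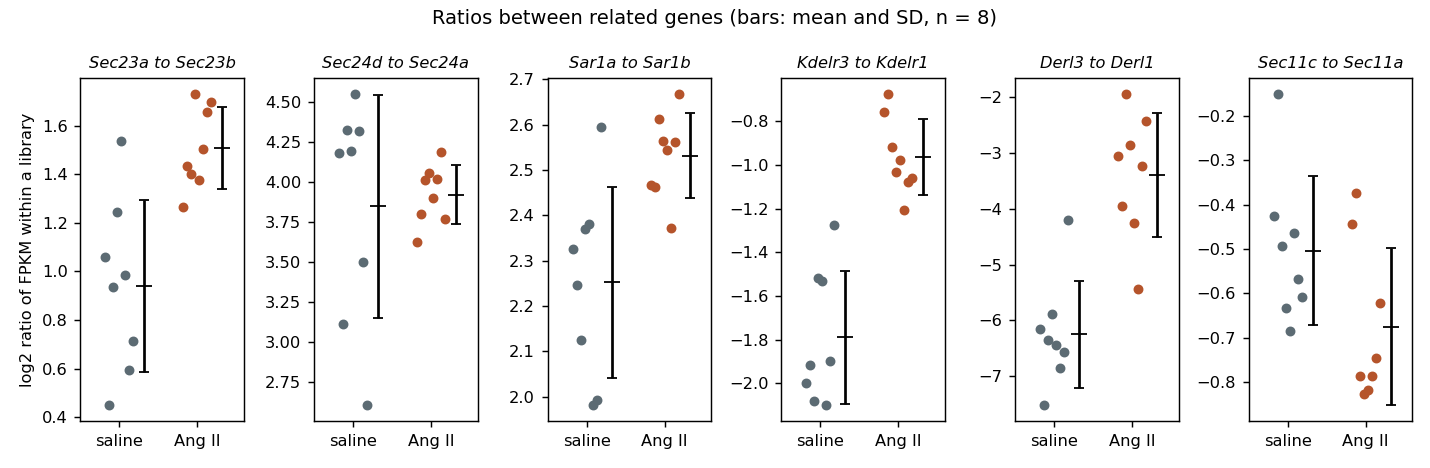
Log2 ratio of FPKM between 2 related genes within each library, for 6 pairs, with points for the 8 saline and the 8 Ang II libraries and bars for mean and SD. The Kdelr3 to Kdelr1 values do not overlap between groups, and the Ang II values of Sec24d to Sec24a lie within the saline range. Each panel has its own axis.

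Values followed the promoter groups as follows, as a description with no test. Of the 11 genes with ERSE or ERSE-II 8 rose, with a median log2 fold change of 0.57 and a range from -0.20 (Syvn1) to 1.81 (Derl3). Of the 32 genes with a window and neither motif 17 rose, with a median of 0.40. The share of all genes tested that rose was 9.54%. All 3 genes with UPRE rose, with a median of 0.95, and none of them is a chaperone. Among the 16 fits that left out 1 library, Sec24d (UPRE) lost its call in 8 and Dnajb11 (ERSE-II) in 9. Of the 11 genes with ERSE or ERSE-II 8 are chaperones, so motif and role overlap.

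The libraries did not carry the difference evenly. Saline 8 was the lowest of all 16 libraries in 33 of the 51 genes. Ang II 8 was the highest in 15 and Ang II 3 in 13. Relative to the saline mean, the median over the 51 genes ran from -0.54 in Saline 8 to 0.27 in Saline 5, and from 0.25 in Ang II 2 to 0.62 in Ang II 3 on the log2 scale. The highest saline library and the lowest Ang II library were thus close in this median. The SD of log2(FPKM + 1) was larger in saline than in Ang II in 44 of the 51 genes (86.3%), as in 78.3% of all genes tested. Without Saline 2, 7 and 8 the saline SD on this scale was larger in 15 (29.4%, against 31.4%).

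**Figure D4:**
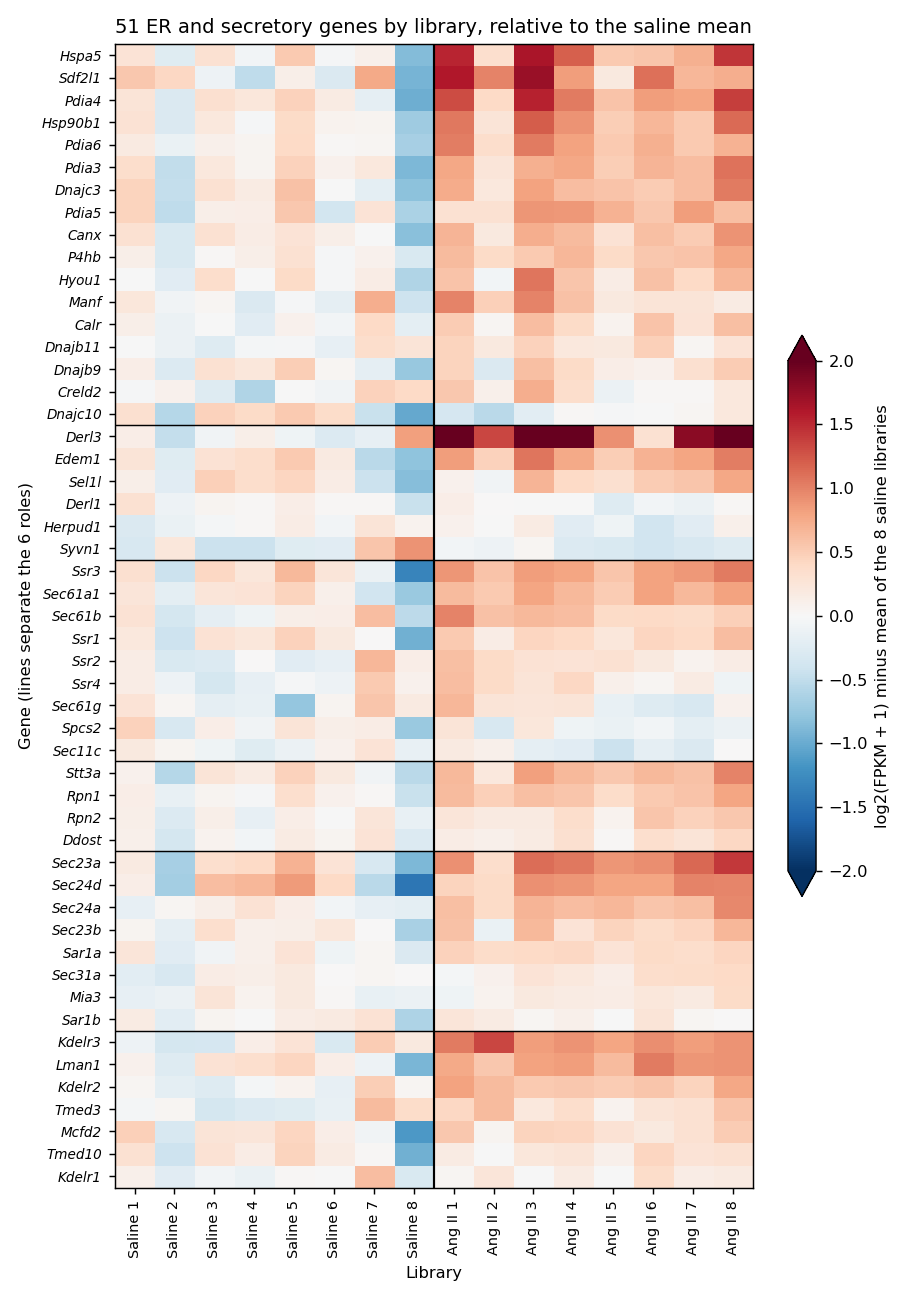
Each of the 51 genes (rows, by role) in each of the 16 libraries (columns), as log2(FPKM + 1) minus the mean of the 8 saline libraries. Red is above the saline mean and blue below, and Saline 8 is lowest in 33 genes.

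The other genes of the same route that are not among the 51 moved in both directions. Of 129 listed, 128 were tested, 33 rose and 14 fell, with a median log2 fold change of 0.13, beside 9.54% and 24.9% of all genes. By role, 7 rose and 5 fell of 29 further folding genes, 5 and 1 of 20 in degradation, 3 and 2 of 17 at the translocon, 2 and 0 of 13 in glycosylation, 6 and 3 of 15 in the coat, 8 and 3 of 24 among receptors and vesicle proteins, and 2 and 0 of 10 among sensors. The largest difference among those named by rule was that of Ergic1, a membrane protein of the ER-Golgi intermediate compartment, which measured 72.3, 103 and 131 FPKM in saline and 171, 229 and 305 FPKM in Ang II with no overlap (1.16, SE 0.14, adjusted p = 9.08e-06, limma). Surf4, a receptor for soluble cargo, rose by 0.55 and the SNARE protein Sec22b by 0.60. Ostc, an oligosaccharyltransferase subunit, rose by 0.87, the disulfide isomerase Txndc5 by 0.74 and the translocon-associated Tram1 by 0.51, and in these 5 genes the groups did not overlap. Sec16b, which marks ER exit sites, rose by 1.04 from low levels (1.91 ± 0.723 to 5.14 ± 2.27 FPKM).

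Those that fell included Sec24c, a relative of Sec24a and Sec24d (-0.30, 123 ± 12.1 to 99.8 ± 8.29 FPKM), Preb, the exchange factor that activates Sar1 (-0.62, 86.6 ± 47.2 to 51.3 ± 7.62 FPKM), the p24 proteins Tmed1 (-0.53) and Tmed4 (-0.42), and Edem2, which starts the trimming of glycans on misfolded proteins (-0.84, 61.6 ± 34.3 to 30.7 ± 3.87 FPKM). The call of Preb was lost without Saline 2 or 7 or any 1 of Ang II 4 to 8 (adjusted p 0.0567 to 0.0728, limma). Sec62, Srp68, Cnpy3 and Sumf2 fell by 0.34, 0.28, 0.46 and 0.51. In Preb 21.8%, in Sumf2 23.6% and in Tmed1 13.6% of exon bases overlapped other gene models, as did 11.9% in Txndc5 and 11.7% in Sec62.

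The transcripts of the sensors of unfolded protein gave few calls. Xbp1 measured 76.7, 88.6 and 103 FPKM in saline and 76.3, 100.1 and 119 FPKM in Ang II (0.12, adjusted p = 0.374, limma). Atf6, Ern1 (IRE1) and Eif2ak3 (PERK) had log2 fold changes of 0.46, 0.23 and 0.41 (adjusted p 0.157, 0.561 and 0.0749, limma). Eif2ak3 passed without Saline 4 or Saline 5 (adjusted p 0.0491 and 0.0499), and Ern1 turned to -0.14 without Saline 7 and 8. Gene-level FPKM does not measure splicing of Xbp1 or cleavage of Atf6. Creb3l1 and Creb3l2, ER-bound factors related to Atf6 and known for secretory and collagen genes, rose by 0.69 (12.5 ± 3.97 to 20.3 ± 3.90 FPKM) and 0.64 (45.9 ± 13.3 to 69.5 ± 10.9 FPKM).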

How the data were processed

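The authors deposited 1 table of FPKM for 16 mouse aorta libraries, made with a SMARTER mRNA-seq kit from Trizol RNA per the labels' protocols. Per the submitters' processing notes, reads were placed on GRCm38 (mm10). The aligner, counter and strand setting were not given in the sources used here. Groups and replicate numbers came from the sample titles. The 51 genes, the lists of other pathway genes and markers and the tests were chosen with earlier results of these data known.

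FPKM gave whole reads within 0.02 for 95.8% to 96.2% of values, and for 47 of the 51 genes in every library. Among 56 pairs of libraries within groups 0 were identical. Genes with a mean of at least 0.5 FPKM (15007) were tested on log2(FPKM + 1) with limma 3.58.1 (trend option, two-sided) in R 4.3.3, and called at a Benjamini-Hochberg adjusted p under 0.05. The script was checked on simulated data. Fold changes are on this scale, which understates low genes. Ratios had exact permutation tests (Python 3.11.15, numpy 2.4.6). Exon overlap came from GENCODE M21, where 99.93% of gene IDs were found. Alternatives were other pseudocounts, filters, scalings and weights, marker scores as covariates, a Wilcoxon rank-sum test, the replicate number as a block and leaving out libraries. Limma voom on recovered reads was added after seeing the data.

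Named with values were, per role class, up to 5 called genes with the smallest adjusted p, up to 2 uncalled genes with the highest mean, both genes of each ratio, up to 2 pathway genes per role and direction, and Xbp1, Atf6, Ern1 and Eif2ak3. Other genes of the 51 were named after their values were seen.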

Additional observations from a re-analysis of the deposited data

Results flagged for a closer look

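Of 114 groups of 8 libraries checked, 8 held a library set apart from the other 7 by more than 0.526 of the group's whole range, and chance gives about 1 in 20. Saline 7 was the library set apart in 4 of them, as the highest saline value: Manf at 125 FPKM, Ssr2 at 186 FPKM, Kdelr1 at 173 FPKM and Kdelr2 at 61.8 FPKM. Saline 8, the lowest library for most of the 51 genes, was the highest saline library for Derl3 at 2.09 FPKM. In the Ang II group the highest values of Sec61b (154 FPKM in Ang II 1), Sec24a (13.97 FPKM in Ang II 8) and Kdelr3 (82.9 FPKM in Ang II 2) stood apart in the same way.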

How the results depend on the processing

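Of the 51 genes, 16 were called higher under all 29 alternatives. The matching share of all 15007 genes tested was not counted. It can be at most the 5.5% called higher with the adipocyte score. Members called higher numbered 27 (no filter) to 42 (quantile normalization) under other pseudocounts, filters, scalings and weights, beside the shares of all genes given in the results, 19 with the adipocyte score and 26 to 32 when 1 library was left out. Dnajc10 became the 1 member, and the 1 chaperone, called lower with array weights (-0.39) and without Saline 2, 7 and 8 (-0.51). Chaperones called higher numbered 6 with the adipocyte and 7 with the macrophage score. Quantile normalization gave 10 higher at the translocon and oligosaccharyltransferase and 13 in the coat and receptors. Leaving out 1 library gave 12 to 14, 2 to 2, 6 to 8 and 6 to 9 higher in the 4 classes. Other pathway genes numbered 52 higher and 4 lower under median ratios, beside 14.9% and 14.1% of all genes tested. Under quantile normalization they numbered 58 and 4, beside 15.1% and 15.8%. With the adipocyte score they numbered 17 and 4 (5.5% and 13.8%), and with the macrophage score 20 and 7 (5.62% and 15.3%). When 1 library was left out they numbered 28 to 41 and 10 to 15. Of all 15007 genes tested, 1177 to 1535 then rose and 3235 to 3894 fell.

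Over all genes tested, same-numbered libraries were mostly not best matched to each other (correlations -0.25 to 0.39, with 2 of 8 best matched to their own number). The highest summed macrophage markers fell on number 1 in both groups (729.9 FPKM in Saline 1 and 740.4 in Ang II 1). The highest summed adipocyte markers fell on number 8 in both, and those of the other marker lists on different numbers. Whether a number marks a shared batch was not tested. With the replicate block 30 members were called higher, 29 of them shared. The Sec11c to Sec11a ratio passed only in the paired sign-flip test (-0.17, adjusted p = 0.0117) and in part of the leave-outs. Over all 16 leave-outs it ran from -0.21 to -0.12 (exact test, adjusted p 0.0207 to 0.156). The Sec24d to Sec24a ratio became -0.19 without Saline 7 and 8 and ran from -0.10 to 0.17 (-0.03 without Saline 2) when 1 library was left out. The ratios Sec23a to Sec23b (0.50 to 0.65), Sar1a to Sar1b (0.24 to 0.33), Kdelr3 to Kdelr1 (0.78 to 0.90) and Derl3 to Derl1 (2.64 to 3.14) stayed past the threshold.

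Signs of the uncalled genes that were named by rule turned in these cases. Under median ratios and quantile normalization Derl1 was 0.11 and 0.14, Dnajc10 0.040 and 0.11, Herpud1 0.073 and 0.16 and Sec11c 0.017 and 0.048. Without Saline 2, 7 and 8 Atf6 was -0.016, Ern1 -0.29 and Sar1b -0.0044. With array weights Ern1 was -0.13 and Sar1b -0.0085, with the adipocyte score Ern1 was -0.10, and without Saline 7 and 8 it was -0.14. When 1 library was left out Derl1 ran from -0.095 to 0.012 (without Saline 1) and Sec11a from -9.1e-05 (without Saline 2) to 0.089. The causes were not tested. A difference not called at 8 libraries per group does not show equal expression.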

Other observations

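Sec24a and Sar1b lie head to head on chromosome 11, on opposite strands with 52 bases between the deposited gene models. Sec24a rose with Ang II without overlap between the groups (log2 fold change 0.63), and Sar1b was not called (0.10). The difference between these neighbours was not tested. They were the only pair of the 51 genes within 10000 bases of each other.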
